A study of Mus musculus with 6 samples.

Results

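The Hox genes lie in 4 clusters, Hoxa, Hoxb, Hoxc and Hoxd, and encode homeodomain transcription factors that record the position of a cell along the body axis and along the limb. Their acetylation of lysine 27 of histone H3 (H3K27ac), a mark of active promoters and enhancers, was described in adult mouse quadriceps together with that of Tbx4, Tbx5 and Pitx1, the genes that distinguish hindlimb from forelimb. Members were all rows of the 2 deposited peak lists whose gene name was a Hox gene of a cluster, or one of its antisense genes, or Tbx4, Tbx5 or Pitx1. They numbered 37 of 46988 peaks in control mice, bearing the names of 24 genes, and 39 of 40721 peaks in detrained mice, bearing the names of 25 genes. The gene name is the gene whose annotated start site was nearest to the centre of the peak. Tag levels did not enter this choice, but the centre follows from the called edges of the peak, so a peak divided differently in the other list can change its name.

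Quadriceps came from wild type young adult male mice, whose strain the labels give as C57BL/6 for the H3K27ac libraries and as C57BL/7 and C57BL/8 for the input libraries. Control mice were housed without a running wheel. Detrained mice ran voluntarily in wheels for several weeks and were rested for 72 hours before harvest, so the comparison asks what remains of exercise after rest. Each group had 2 H3K27ac libraries, each from a single quadriceps of 1 animal, and 1 input library of sheared chromatin that was not precipitated. The libraries are called C2 and C3 in control mice and Ex1 and Ex2 in detrained mice, as in the headers of the lists.

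In each cluster the genes are numbered by paralog, from 1 at the anterior end to 13 at the posterior end, and genes of the same number in different clusters descend from a common ancestor. In the embryo, genes of low number are switched on early and towards the head, and those of high number late and towards the tail and the tip of the limb. Polycomb proteins hold the inactive part of a cluster silent, and adult fibroblasts and muscle cells keep a Hox code that reflects where they arose. Pitx1 acts upstream of Tbx4 in the hindlimb bud, from which the quadriceps forms, whereas Tbx5 is the corresponding T-box gene of the forelimb bud and the heart.

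The promoter sequences of 7 members are shown, some at start sites inside a peak and some at start sites outside one. Each run is the 250 bases before a start site, on the strand of the gene, taken from RefSeq for the GRCm38.p6 build, which is mm10, the build of the lists. Capitals mark CG dinucleotides, which are dense in the promoters of many developmental genes. Hoxa9 (chr6:52227371-52227620, minus strand) lay inside the widest Hoxa peak and held 3 CG dinucleotides. Hoxb4 (chr11:96318017-96318266, plus strand), Hoxd3 (chr2:74711743-74711992, plus strand) and Hoxd8 (chr2:74704365-74704614, plus strand) stood at start sites inside a peak in both lists. They held 14, 12 and 6 CG dinucleotides. Hoxa13 (chr6:52260881-52261130, minus strand) and Hoxd13 (chr2:74667975-74668224, plus strand) stood at start sites with no peak in either list, and held 35 and 31 CG dinucleotides. Tbx4 (chr11:85896515-85896764, plus strand) was the downstream of its 2 curated start sites, also lay outside every listed peak and held 6.
Hoxa9: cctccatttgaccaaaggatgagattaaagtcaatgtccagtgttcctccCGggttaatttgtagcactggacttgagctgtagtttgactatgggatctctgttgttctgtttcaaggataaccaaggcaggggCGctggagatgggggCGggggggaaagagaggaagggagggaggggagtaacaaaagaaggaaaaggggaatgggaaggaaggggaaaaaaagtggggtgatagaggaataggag
Hoxb4: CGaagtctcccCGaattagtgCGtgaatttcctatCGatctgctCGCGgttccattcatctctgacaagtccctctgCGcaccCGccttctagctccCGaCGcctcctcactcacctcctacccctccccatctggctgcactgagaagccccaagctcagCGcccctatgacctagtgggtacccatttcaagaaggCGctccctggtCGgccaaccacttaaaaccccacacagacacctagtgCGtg
Hoxd3: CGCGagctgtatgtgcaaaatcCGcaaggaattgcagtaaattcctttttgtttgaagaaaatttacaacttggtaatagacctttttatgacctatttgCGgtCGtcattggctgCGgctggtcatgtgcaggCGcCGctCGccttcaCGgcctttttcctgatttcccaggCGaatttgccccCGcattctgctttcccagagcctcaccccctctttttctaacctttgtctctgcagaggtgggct
Hoxd8: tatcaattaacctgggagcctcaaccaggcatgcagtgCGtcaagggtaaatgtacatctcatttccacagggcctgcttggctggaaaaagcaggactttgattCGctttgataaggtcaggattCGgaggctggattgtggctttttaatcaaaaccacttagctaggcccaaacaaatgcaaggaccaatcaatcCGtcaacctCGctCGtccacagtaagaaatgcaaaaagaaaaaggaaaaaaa
Hoxa13: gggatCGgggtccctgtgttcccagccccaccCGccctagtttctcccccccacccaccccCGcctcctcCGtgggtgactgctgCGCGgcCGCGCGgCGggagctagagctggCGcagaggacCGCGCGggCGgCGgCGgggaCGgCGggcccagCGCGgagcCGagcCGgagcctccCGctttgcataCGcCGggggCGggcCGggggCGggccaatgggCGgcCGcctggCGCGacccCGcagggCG
Hoxd13: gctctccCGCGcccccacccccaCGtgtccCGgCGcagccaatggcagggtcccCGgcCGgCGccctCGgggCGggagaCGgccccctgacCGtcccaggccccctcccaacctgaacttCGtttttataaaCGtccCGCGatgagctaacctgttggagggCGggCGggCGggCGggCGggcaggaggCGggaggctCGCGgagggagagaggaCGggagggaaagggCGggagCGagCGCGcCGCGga
Tbx4: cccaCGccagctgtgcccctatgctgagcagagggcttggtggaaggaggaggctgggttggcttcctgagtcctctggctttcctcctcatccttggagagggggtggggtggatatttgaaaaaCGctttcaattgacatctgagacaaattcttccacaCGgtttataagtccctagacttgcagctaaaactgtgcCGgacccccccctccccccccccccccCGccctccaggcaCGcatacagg

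Promoters of 26 member genes, 28 windows in all, were found in the RefSeq table. Their median number of CG dinucleotides was 12.5, compared with 6 over all 32851 promoter windows read. The 12 windows whose start site lay inside a peak of either list and the 16 whose start site lay in none had the same median of 12.5, with ranges of 3 to 24 and 2 to 35. Some start sites outside a peak lay close to one, such as that of Hoxa5, and of the Hoxc genes only Hoxc4 was in the table, so the comparison leaves out most of the most acetylated cluster. Of the motif letters searched on both strands, TTTATGG, bound by posterior Hox proteins, occurred in 1 member window, that of Hoxd4, and in 2.43% of all windows. TGATTTAT, a composite letter string of PBX and HOX proteins that can overlap TTTATGG, was found in none of the member windows and in 0.837% of all. AGGTGT, the core letters of a T-box site, was found in the windows of Hoxa10, Hoxb4 and Hoxd9 and in 11.8% of all windows. TAATCC, a string bound by bicoid-type homeodomains such as that of Pitx1, was found in no member window and in 6.25% of all.

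Total tags were 22400894, 21796628, 20805019 and 22350779 in C2, C3, Ex1 and Ex2, and the inputs held 10812470 in control and 21298438 in detrained mice. The deposited tables give the pooled tags of a peak and a log2 value per library, so the tags of each library were estimated from both. That log2 value was shrunken by its makers, which draws the 2 libraries of weak peaks together. Density is given throughout as tags per kb of peak per 10000000 total tags. As the tables were normalized separately, and as 2 libraries against 2 allow no two-sided exact permutation p below 0.333, no test was made between the groups. A difference was instead read against the spread between libraries, by asking whether both detrained libraries lay on one side of both control libraries. The labelled tissue was checked against marker genes: peaks named after 11 of 12 muscle fibre markers were listed in each group, Tnnt3 being the one without, and none after the heart markers Myh6, Nppa and Myl7. Whole muscle holds several cell types, and fewer cells of a type and less acetylation per cell cannot be told apart.

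Hoxc and Hoxa held most of the H3K27ac of the 4 clusters. The number of member peaks was 6 in control and 6 in detrained mice for Hoxa, 9 and 11 for Hoxb, 11 and 9 for Hoxc, and 4 and 4 for Hoxd. Pitx1 and Tbx5 each had 3 peaks in both groups, and Tbx4 had 1 in control and 3 in detrained mice. Members held 0.124% of the tags in listed control peaks and 0.159% of those in detrained peaks. These shares depend on gene names, because the widest Hoxc block bore the name of a microRNA gene in control mice, whereas parts of it bore Hox names in detrained mice. Their median density was 29.8 in control and 29.6 in detrained mice, compared with 27.6 and 30.2 over all listed peaks, so the medians lay close together. In control mice 45.9% of members were centred within 2 kb of a start site, compared with 23.6% of all peaks, and in detrained mice 48.7% compared with 26.7%. The clusters are dense in start sites, with 9 to 11 Hox genes in 96.9 to 174 kb, and this was not taken into account. By annotation, 10.8% of control and 7.69% of detrained members were promoter peaks, compared with 11.2% and 12.6% of all peaks.

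Of the 39 Hox genes, 18 gave their name to a peak in control mice and 19 in detrained mice, and 16 did so in both. In Hoxa, 6 of 11 genes were named in each group. In Hoxb, 6 of 10 were named in control and 5 in detrained mice. In Hoxc, 3 of 9 were named in control and 5 in detrained mice, and in Hoxd 3 of 9 in each. The other rows were antisense genes, Hoxb3os, Hoxb5os and Hoxd3os1, with 1 peak each in both groups. The counting could not use strand, so tags of these antisense genes and of the Hox genes they overlap cannot be told apart.

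A wide peak can cover several start sites and still carry 1 gene name, so start sites were also examined one by one, using the curated RefSeq transcripts of the 39 Hox genes, Tbx4, Tbx5 and Pitx1. A peak covered the start site of 17 of the 42 genes in control mice and of 22 in detrained mice, with 16 covered in both. In the Hoxa cluster 7 genes were covered in each group, in Hoxb 2 and 3, in Hoxc 5 and 7, and in Hoxd 2 and 3. Of the 23 genes of paralogs 1 to 8, 11 were covered in control and 14 in detrained mice, compared with 5 and 6 of the 16 genes of paralogs 9 to 13. Of the 9 genes of paralogs 11 to 13, Hoxc11 alone was covered, in both groups. No start site of paralog 12 or 13 lay within 9.45 kb of a peak in control mice, or within 16.4 kb in detrained mice, and that of Hoxb13 was 89.4 kb and 88.8 kb away.

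**Figure D1:**
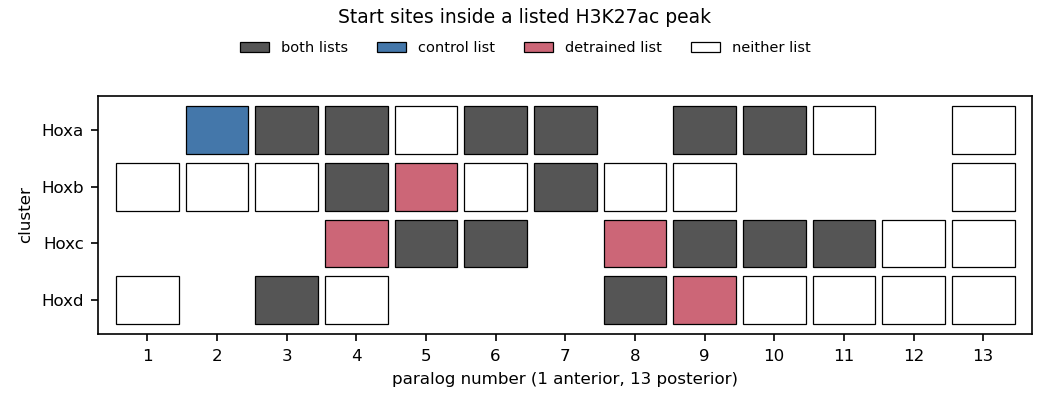
Grid of Hox genes by cluster (rows) and paralog number (columns), filled by whether a listed H3K27ac peak covers a curated start site of the gene. An absent square means that the mouse cluster has no such gene or that it is not shown. Dark squares, covered in both lists, run to paralog 10 in Hoxa, 7 in Hoxb, 11 in Hoxc and 8 in Hoxd.

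Most start sites covered in a single list differed by the edge of a peak. Hoxc8, Hoxd9, Hoxc4 and Hoxb5 were among those covered only in detrained mice, and their start sites were 50, 72, 75 and 183 bp outside the nearest control peak. Hoxa2 was covered only in control mice and lay 313 bp outside the nearest detrained peak. Hoxa5 was covered in neither list, but its start site was 20 bp outside a control peak and 119 bp outside a detrained peak. Tbx4 was the exception, because the nearest control peak was 38.8 kb from the start site that a detrained peak covered. With a margin of 1 kb, 24 genes were covered in control and 25 in detrained mice.

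**Figure D2:**
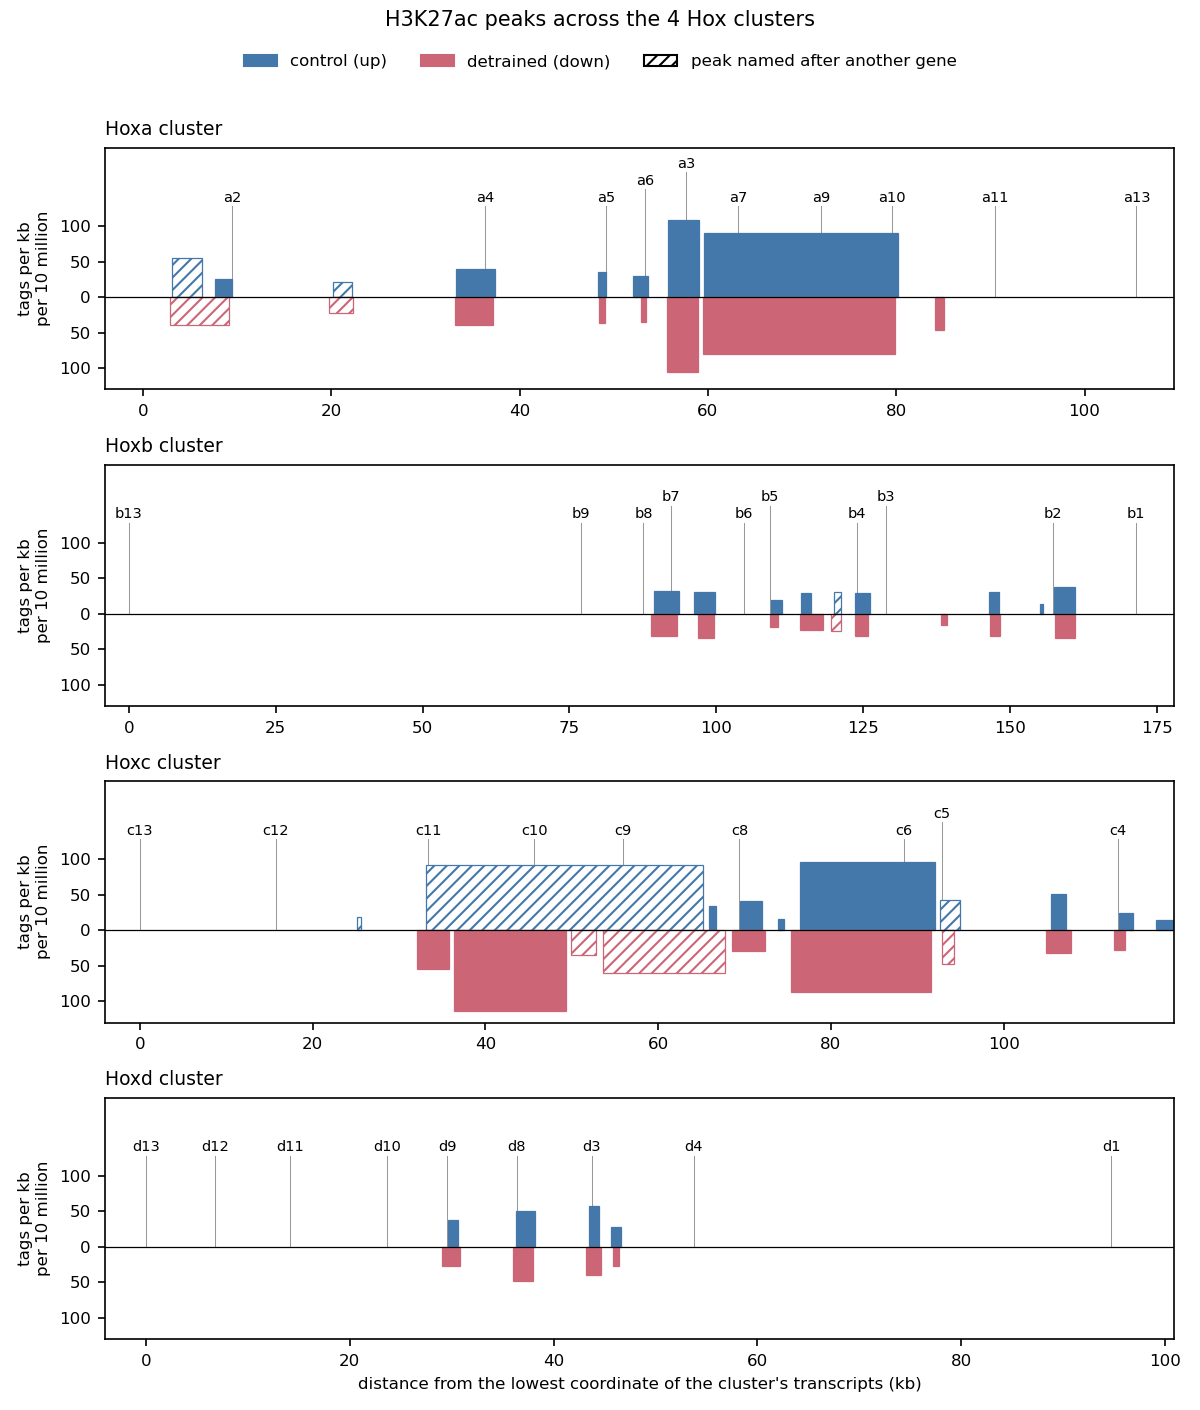
Maps of the Hoxa, Hoxb, Hoxc and Hoxd clusters, with distance in kb along the span of the cluster's transcripts on the horizontal axis. The height of each box is the mean density of the 2 libraries of a group, control upwards and detrained downwards, hatched boxes are peaks named after genes that are no members, and thin lines mark start sites of named genes. Hoxa and Hoxc carry broad blocks with densities mostly of 80 to 115 that end before the genes of paralog 12 and 13, while Hoxb and Hoxd carry scattered boxes.

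The Hoxa cluster carried a broad acetylated block from the Hoxa3 start site to the proximal start site of Hoxa10. That Hoxa3 start lies between Hoxa6 and Hoxa7, so the block did not cover the start sites of Hoxa4, Hoxa5 and Hoxa6. The peak named Hoxa9 spanned 20633 bp in control mice (chr6:52214967-52235600) and 20321 bp in detrained mice (chr6:52214869-52235190), and covered the start sites of Hoxa7, Hoxa9 and the proximal start of Hoxa10. It ranked 50 of all control peaks and 61 of all detrained peaks by pooled tags. Density there was 87.8 and 93.8 in the control libraries and 81.0 and 80.5 in the detrained ones. Both detrained libraries were thus below both control libraries, with a log2 ratio of -0.17. Beside it lay the densest control member, the peak named Hoxa3 (chr6:52211123-52214407 in control mice), which covered the Hoxa3 start site. It stood at 105, 112, 108 and 104 in C2, C3, Ex1 and Ex2, and the groups overlapped. Hoxa3 and Hoxa9 encode an anterior and a posterior factor, respectively. The Hoxa3 peak stood beside that of Hoxa9 at the start of a long transcript, which spans Hoxa4, Hoxa5 and Hoxa6.

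The other Hoxa members were narrower and less dense. The Hoxa4 peak of 4133 bp in control mice covered the Hoxa4 start site and had densities of 36.1, 44.1, 40.6 and 39.0 in C2, C3, Ex1 and Ex2. The Hoxa5 peak stood at 33.1, 36.2, 43.2 and 28.4 in the same order. In both, the groups overlapped. The Hoxa6 peak covered its start site in both lists but shrank from 1637 bp in control to 500 bp in detrained mice, with densities of 30.6 and 29.0 in control and 34.5 and 34.8 in detrained mice. Its higher density and its fewer tags thus pointed in opposite directions, and it was not counted among shared peaks because the overlap was under 50% of the control peak. The Hoxa2 peak of control mice, with densities of 21.2 and 29.0, covered the Hoxa2 start site. In detrained mice the tags there belonged to a peak of 6.33 kb named after the noncoding RNA Hotairm1, with densities of 43.4 and 34.5. A narrow Hoxa10 peak, 868 bp from the distal Hoxa10 start, was listed in detrained mice only, at 39.9 and 52.7. Hoxa7, which lies inside the broad block, Hoxa11 and Hoxa13 were among the genes that gave their names to no peak.

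The Hoxb cluster was marked by scattered peaks of moderate density, and its members bore the names of genes of paralogs 1 to 7. One further peak in each list, named after the microRNA gene Mir10a, lay between Hoxb5os and Hoxb4. The peak over the Hoxb7 start site, with 4241 bp in the control list and 4553 bp in the detrained list, had densities of 29.7, 34.0, 34.6 and 29.6 in C2, C3, Ex1 and Ex2. A second Hoxb7 peak, 5.69 kb downstream in control mice, stood at 24.8, 35.5, 37.3 and 30.3 in the same order. The Hoxb4 peak, over its start site, stood at 30.0, 29.2, 36.8 and 25.5. All 3 peaks had overlapping groups, and the libraries of a group differed from each other as much as the groups did.

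Around Hoxb5 the called edges moved. The Hoxb5 peak stood at 16.3 and 20.8 in the control libraries and at 21.6 and 15.98 in the detrained ones, and reached the start site in detrained mice only. The peak named after its antisense gene Hoxb5os spanned 1629 bp in the control list and 3842 bp in the detrained list, with densities of 22.6 and 34.8 and of 27.1 and 19.3. The Hoxb3 peak 2.13 kb upstream of a Hoxb3 start site stood at 32.01, 28.7, 34.2 and 28.1 in C2, C3, Ex1 and Ex2. The densest Hoxb member of the control list bore the name of the antisense gene Hoxb3os and lay 107 bp from the Hoxb2 start site. It had densities of 35.0 and 38.9 in control and 34.2 and 33.1 in detrained mice, so both detrained libraries were lower, with a log2 ratio of -0.13. A Hoxb2 peak of 500 bp, at 12.6 and 15.5, was listed in control mice only. The peaks named Hoxb1 lay 38.8 to 48.7 kb downstream of the gene, outside the cluster, and the densest of them, in detrained mice, stood at 20.9 and 21.7 and had no control partner. The one control peak named Hoxb1, 38.8 kb downstream, stood at 15.5 and 16.2, and its detrained partner at 14.5 and 15.98. Hoxb6, Hoxb8, Hoxb9 and Hoxb13 gave their names to no peak.

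The Hoxc cluster carried the most H3K27ac of the 4, and its widest block bore no Hox gene name in control mice. In control mice a single peak of 32.03 kb (chr15:102954258-102986285) covered the start sites of Hoxc9, Hoxc10 and Hoxc11, with densities of 89.1 and 94.7. It ranked 9 among all control peaks by pooled tags and 10 by length, yet it bore the name of the microRNA gene Mir196a-2, whose start lay nearest to its centre, and so was no member. In detrained mice the same stretch was listed as 4 peaks, named Hoxc11, Hoxc10, Mir196a-2 and Gm36878. The Hoxc10 peak of 12878 bp had the highest density of the detrained members, 112 in Ex1 and 115 in Ex2, and the Hoxc11 peak of 3776 bp stood at 54.1 and 55.0. The peaks named Mir196a-2 and Gm36878 stood at 33.1 and 37.9 and at 60.4 and 60.2, and the last covered the Hoxc9 start site. The appearance of Hoxc10 and Hoxc11 among the detrained members was therefore a change of division and name.

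Summed over the whole stretch of 35.7 kb, tags per 10000000 were 2881 and 3059 in the control libraries and 2595 and 2652 in the detrained ones. Both detrained libraries were below both control libraries, with a fold of 0.884. The covered length was nearly the same, 32.8 kb in control and 33.7 kb in detrained mice, and mean density was 90.5 and 77.8. The second broad peak of the cluster, named Hoxc6 and covering the Hoxc6 start site, spanned 15609 bp in control mice (chr15:102997541-103013150) and 16275 bp in detrained mice. Its density was 93.5, 98.0, 86.0 and 87.2 in C2, C3, Ex1 and Ex2, again lower in both detrained libraries, with a log2 ratio of -0.14.

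Towards its anterior end the Hoxc cluster was marked by narrower peaks. The Hoxc8 peak downstream of the start site grew from 2602 bp in the control list to 3793 bp in the detrained list, with densities of 42.2 and 39.1 and of 29.8 and 29.2. The Hoxc5 start site lay inside a peak named after the microRNA gene Mir615, at 43.9 and 40.9 in control and 54.3 and 41.1 in detrained mice. Peaks named Hoxc4, the most anterior gene of the cluster, numbered 7 in control and 5 in detrained mice and lay from 6.97 kb upstream to 54.4 kb downstream of the gene. The densest control peak of these, 6.97 kb upstream, stood at 50.9 and 50.01 in control and 30.8 and 34.0 in detrained mice. The densest detrained one, 25.95 kb downstream, stood at 36.6 and 44.0, beside 43.8 and 42.1 in control mice. The peak that covered the Hoxc4 start in detrained mice stood at 23.7 and 32.1, and the control peak beginning 75 bp downstream of that start at 26.1 and 22.4. Hoxc12 and Hoxc13 had no peak.

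The Hoxd cluster was marked over a short stretch from Hoxd9 to Hoxd3. All 4 of its peaks lay there, covering 4.99% of the span of the cluster in control and 6.05% in detrained mice. The Hoxd8 peak, over both Hoxd8 start sites, had densities of 43.4, 58.3, 53.4 and 41.8 in C2, C3, Ex1 and Ex2, and the groups overlapped. The Hoxd3 peak, over the Hoxd3 start site, stood at 51.1, 63.5, 42.9 and 35.6 in the same order, and both detrained libraries were lower. The Hoxd9 peak, within 1 kb of its start site, stood at 33.1 and 40.8 in control and 27.8 and 26.7 in detrained mice, lower in both. Its called length was 1030 bp in the control list but 1822 bp in the detrained one, and its tags per peak were higher in both detrained libraries, at 50.7 and 48.7 against 34.1 and 42.1 per 10000000. The peak named after the antisense gene Hoxd3os1 stood at 26.1, 28.5, 28.8 and 26.04 and overlapped between groups. The genes of paralogs 10 to 13, which pattern the distal limb and the digits in the embryo, and Hoxd1 and Hoxd4 gave their names to no peak. Hoxd4 was 7.15 kb from the nearest control peak and Hoxd1 48.2 kb.

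Whole clusters were compared by summing every listed peak inside the span of the cluster's transcripts, whatever its name. Hoxc held 4702, 4926, 4299 and 4376 tags per 10000000 in C2, C3, Ex1 and Ex2, a log2 ratio of -0.15. Hoxa held 2636, 2841, 2601 and 2485 in the same order, a log2 ratio of -0.11. In both clusters the detrained libraries were below the control libraries, narrowly so in Hoxa. Among all single peaks matched between the lists, 27.2% also stood below in both detrained libraries. No such share was computed for spans as long as a cluster. All listed peaks together held 45.5% and 49.4% of total tags in the control libraries and 46.9% and 44.7% in the detrained ones. Relative to those listed tags, a scaling added after seeing the data, the detrained libraries remained below, with smaller log2 ratios of -0.10 in Hoxc and -0.06 in Hoxa. Hoxb held 573, 673, 715 and 588, and Hoxd 190, 240, 234 and 197, and in both the groups overlapped. Peaks covered 50.03% of the Hoxc span in control and 51.2% in detrained mice, 35.7% and 36.7% of Hoxa, and 11.9% and 13.1% of Hoxb. The order Hoxc, Hoxa, Hoxb, Hoxd by summed tags held in each of the 4 libraries. By mean density over the covered length Hoxd came before Hoxb in each library. It was 81.2 and 85.1 in Hoxc in control mice, 70.1 and 75.5 in Hoxa, 39.3 and 49.8 in Hoxd and 27.6 and 32.5 in Hoxb. In detrained mice it was 72.5 and 73.8 in Hoxc, 67.2 and 64.2 in Hoxa, 39.9 and 33.7 in Hoxd and 31.5 and 25.9 in Hoxb.

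Counted peak by peak under the gene names, the clusters ranked differently, since a broad block counts once. The median density of Hoxa members was 34.6, 39.9, 41.9 and 45.3 in C2, C3, Ex1 and Ex2, above the median of all listed peaks in each library, which was 27.2, 28.1, 30.6 and 29.9. Hoxd members had medians of 37.9, 48.8, 35.2 and 30.9, and Hoxc members of 33.3, 28.6, 32.2 and 34.0, also above all peaks in each library. Hoxb members had medians of 24.8, 29.2, 27.1 and 22.7, which was below all peaks in C2, Ex1 and Ex2 and above them in C3. The first place passed from Hoxd in the control libraries to Hoxa in the detrained libraries, so no order among the clusters by median held in all 4.

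The median density of peaks with posterior names was above that of peaks with anterior names within every library, but few peaks carried posterior names. The median log2 density of paralogs 9 to 13 minus that of paralogs 1 to 8 was 0.79, 1.02, 0.66 and 0.91 in C2, C3, Ex1 and Ex2. In density, the posterior medians were 53.9, 61.9, 54.1 and 55.0 and the anterior ones 31.3, 30.6, 34.2 and 29.2. The posterior peaks numbered 2 in the control list, Hoxa9 and Hoxd9, and 5 in the detrained list, which added Hoxa10, Hoxc10 and Hoxc11, while the anterior peaks numbered 28 and 25. Assigning each peak to every member start site that it covered gave a mean difference over the libraries of 0.90, compared with 0.84 by gene name. The control median was the midpoint of Hoxa9, at 87.8 and 93.8, and Hoxd9, at 33.1 and 40.8. In detrained mice Hoxd9, at 27.8 and 26.7, lay below the anterior medians, so there the difference rested on the Hoxa and Hoxc peaks.

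Tbx5, the T-box gene of the forelimb, had the broadest peak of the limb identity genes although the tissue came from the hindlimb. Its peak spanned 7381 bp in control mice (chr5:119830558-119837939) and 7114 bp in detrained mice and covered the Tbx5 start site. The libraries C2, C3, Ex1 and Ex2 stood at 29.0, 21.9, 27.6 and 30.4. C3 was the low library and the groups overlapped. Of the other Tbx5 peaks, the one 4.48 kb downstream in control mice stood at 24.7, 18.8, 18.9 and 25.2 in the same order, and the one 33.8 kb downstream at 25.8, 21.5, 18.5 and 24.3. Neither separated the groups. The median over the Tbx5 peaks was below that of all listed peaks in every library.

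Pitx1, which specifies the hindlimb, had no peak over its start site. The nearest control peak was 4.49 kb away and the nearest detrained peak 18.6 kb. Peaks bear its name because its start site was nearest, and a link of distant peaks to Pitx1 was not tested. The Pitx1 peak 85.6 kb upstream was its densest in control mice, at 32.9 and 35.5, and stood lower, at 25.4 and 28.5, in the detrained libraries, a log2 ratio of -0.34. Since that peak was called at 1707 bp in the control list and 2119 bp in the detrained list, its tags per peak hardly differed, with a log2 ratio of -0.03. The peak 19.5 kb upstream stood at 23.8, 27.9, 24.7 and 25.3 in C2, C3, Ex1 and Ex2, and the groups overlapped. Its tags per peak were higher in both detrained libraries, at 33.6 and 39.4 per 10000000 in control and 41.2 and 42.3 in detrained mice, over called lengths of 1409 and 1669 bp. A peak 146 kb upstream, the densest of Pitx1 in detrained mice at 29.6 and 30.9, had no counterpart in the control list, and a weak one in an exon, at 12.9 and 14.2, was listed in control mice only.

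Tbx4, the T-box gene of the hindlimb, had its single control peak 45.5 kb downstream of its start site in sequence annotated as intergenic. That peak had the highest ratio of all shared members. Its density was 20.7 and 20.6 in the control libraries and 31.3 and 26.4 in the detrained ones, so both detrained libraries were above both control libraries, with a log2 ratio of 0.48 and a fold of 1.39. The pair was left out, and no member stood above, when 80% of each peak had to be covered or when both peaks had to exceed input 4-fold with an adjusted p under 0.001. Detrained mice had 2 further Tbx4 peaks near the gene. The one of 626 bp, at 23.5 and 21.7, covered the upstream curated start site, and the one of 1025 bp, at 13.8 and 21.7, lay 906 bp from the downstream start site. Both were below the median density of all detrained peaks in both libraries. The 200 bases at the centre of the part of the Tbx4 peak common to both lists (chr11:85942035-85942234, plus strand) and of the Pitx1 peak 85.6 kb upstream (chr13:55916947-55917146, plus strand) are shown as the shared distal peaks of each gene with the largest difference in density, with motif letters in capitals.
Tbx4 downstream peak: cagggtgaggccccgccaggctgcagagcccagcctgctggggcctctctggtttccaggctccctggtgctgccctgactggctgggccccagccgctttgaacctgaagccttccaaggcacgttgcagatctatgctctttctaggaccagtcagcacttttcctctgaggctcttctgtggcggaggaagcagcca
Pitx1 upstream peak: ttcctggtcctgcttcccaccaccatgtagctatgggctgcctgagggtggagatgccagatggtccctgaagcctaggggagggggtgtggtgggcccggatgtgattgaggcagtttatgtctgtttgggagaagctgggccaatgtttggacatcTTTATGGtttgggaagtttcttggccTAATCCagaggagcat
The Pitx1 centre held 1 TTTATGG and 1 TAATCC, and the Tbx4 centre held none of the 4 strings. Among the centres of all 25755 shared autosomal peaks, TTTATGG occurred in 2.08%, TAATCC in 5.79%, AGGTGT in 8.64% and TGATTTAT in 0.648%. Among the 26 shared member centres they occurred in 1, 2, 2 and 0, respectively.

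**Figure D3:**
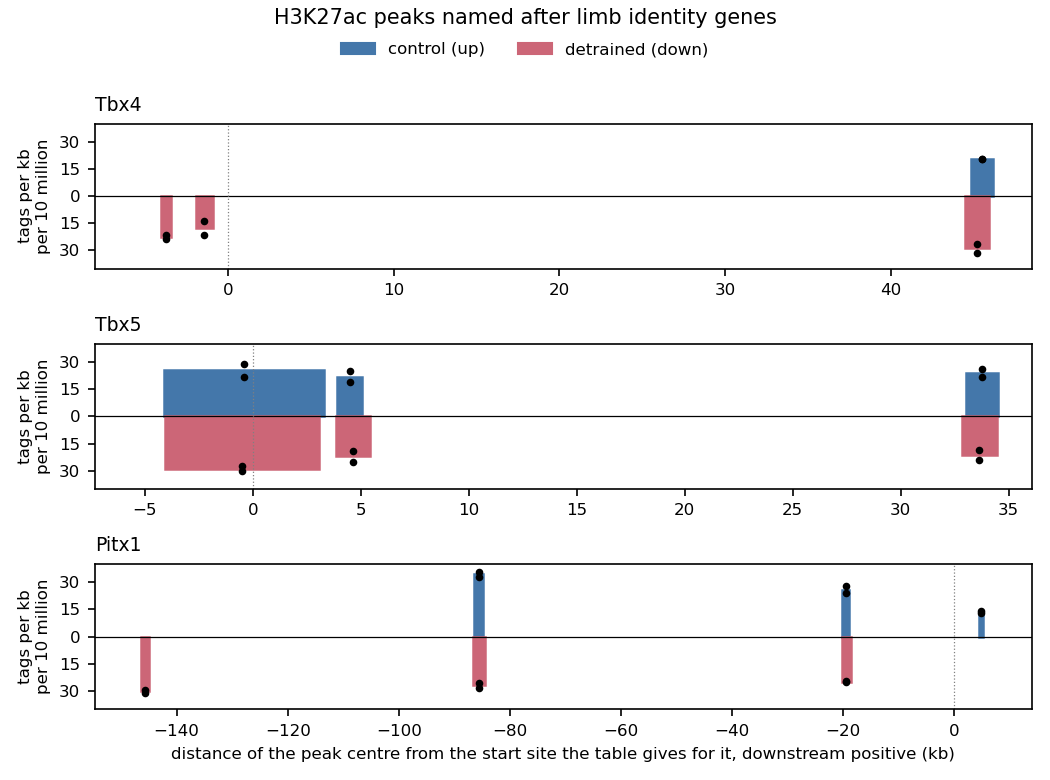
Peaks named Tbx4, Tbx5 and Pitx1, by distance in kb of the peak centre from the start site given for it in the list (dotted line). Box heights are the mean density of the 2 libraries, control upwards and detrained downwards, and black points are the libraries. The Tbx5 start site lies in a broad box in both groups, and Tbx4 has boxes near its start in detrained mice only.

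The comparison of control with detrained mice used pairs of peaks, 1 from each list, each matched to a single partner and each covered by it over 50% or more of its length. Of these 26422 shared peaks, 26 were members. Their median log2 ratio of density, detrained over control, was -0.04, compared with -0.03 over all shared peaks, and their range was -0.64 to 0.48. Of the 26, 10 had a positive and 16 a negative ratio. Both detrained libraries were above both control libraries at 1 member, the Tbx4 peak, and this held for 21.3% of all shared peaks. They were below at 8 members, a share of the members close to the 27.2% of all shared peaks. Counted as tags per peak, 4 members were above and 8 below. None of the members differed 2-fold with the groups apart, which occurred at 0.0757% of all shared peaks. The median of the members and their share below the controls thus lay near those of all peaks.

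**Figure D4:**
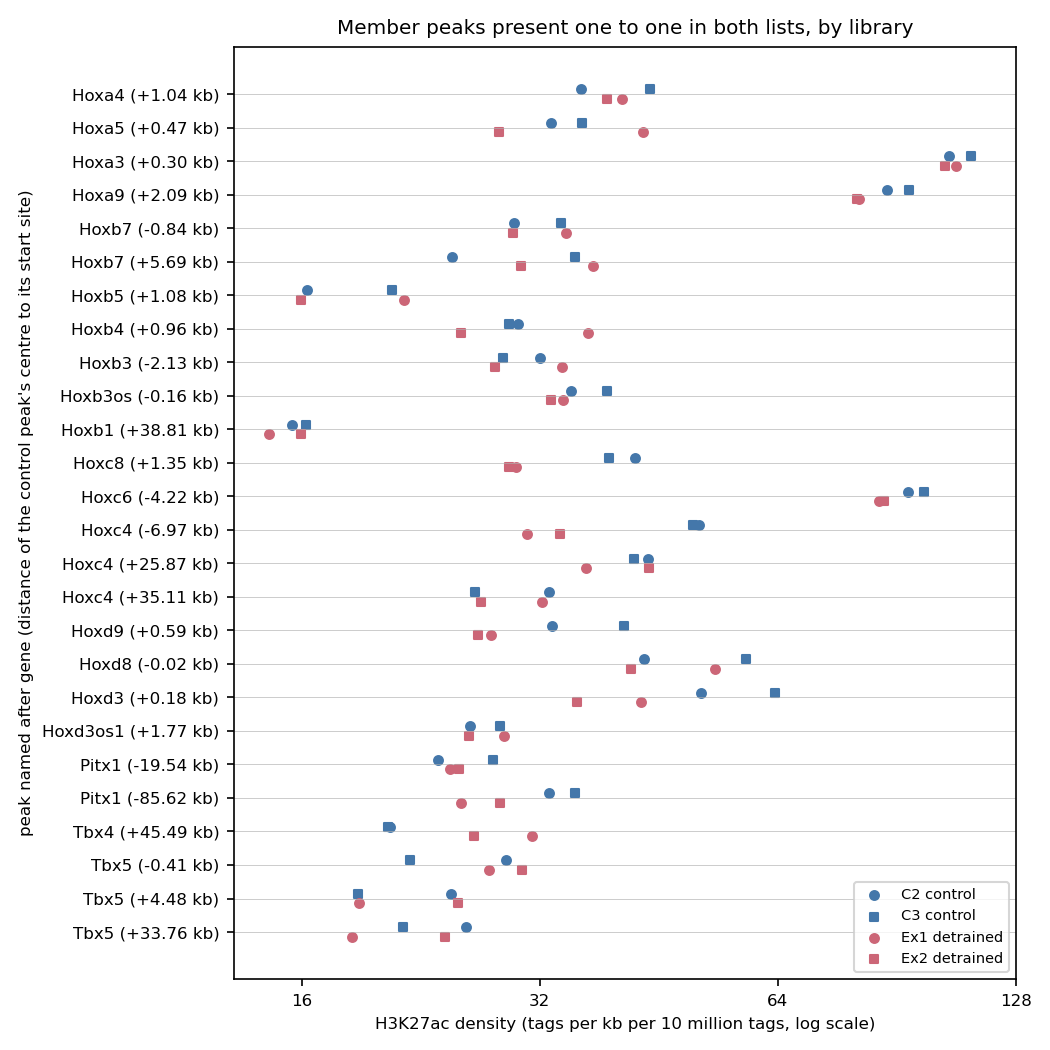
Density of the 26 shared member peaks in the 4 libraries, on a log axis, with control in blue and detrained in red. The peaks of Hoxa3, Hoxa9 and Hoxc6 lie near 80 to 112 and the others between 14 and 64, and at most peaks the libraries of the groups interleave.

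Of the 9 members that separated the groups, 3 were among the 5 shared Hoxc peaks and 2 among the 4 shared Hoxd peaks. The groups separated at 12815 of all 26422 shared peaks. The 3 lowest ratios were at the Hoxc4 peak 6.97 kb upstream, with a log2 ratio of -0.64, at Hoxd3 with -0.54 and at Hoxc8 with -0.46, followed by Hoxd9 with -0.43. Each of these was called longer in detrained mice, 2794 against 1730 bp at Hoxc4, 1462 against 1044 bp at Hoxd3, 3793 against 2602 bp at Hoxc8 and 1822 against 1030 bp at Hoxd9. Counted as tags per peak, the ratios were 0.05, -0.06, 0.08 and 0.39, so the direction turned at Hoxc4, Hoxc8 and Hoxd9. The lower values at Hoxa9, Hoxc6 and Hoxb3os kept their direction, at -0.19, -0.08 and -0.22 per peak. Behind the Tbx4 peak, the highest ratios were 0.20 at the Tbx5 start site and 0.18 at the downstream Hoxb7 peak, and in both the libraries of the groups overlapped. The pooled SD between libraries of a group at the Hoxb7 peak was 0.30 on the log2 scale, larger than its ratio. Median ratios by cluster were -0.02 for 4 Hoxa peaks, 0.01 for 7 Hoxb peaks, -0.14 for 5 Hoxc peaks and -0.26 for 4 Hoxd peaks. As tags per peak they were -0.11, -0.16, -0.08 and -0.03, so the order of the clusters depended on the called lengths.

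**Figure D5:**
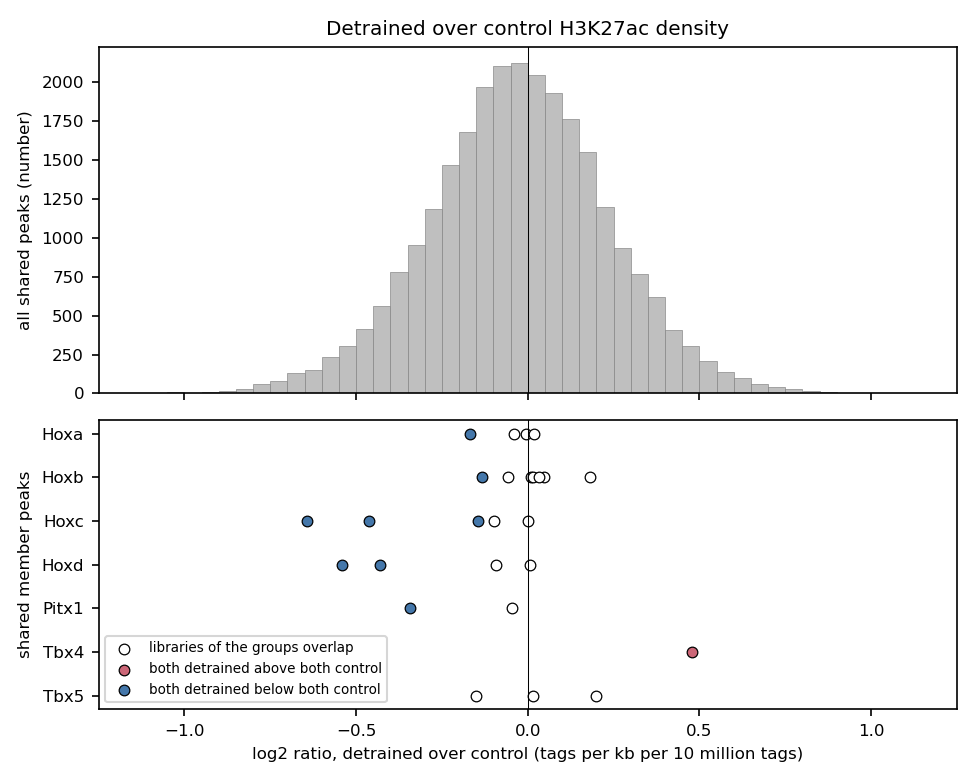
Log2 ratio of density, detrained over control, for all 26422 shared peaks (upper panel, number per bin) and for each of the 26 shared members by cluster or gene (lower panel), coloured where the libraries of the groups do not overlap. Members span -0.64 to 0.48, inside the range of all shared peaks.

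Because called edges moved, both lists were also merged into loci, and tags were summed per locus. Of 32 loci with a member, 6 were above the control libraries in both detrained libraries and 10 below, against 28.2% and 29.5% of all loci, and the median log2 ratio was -0.03. A single locus passed 2-fold with the groups apart, which 7.13% of all loci did. It was the Hoxa6 peak, at 50.1 and 47.5 tags per 10000000 in control and 17.2 and 17.4 in detrained mice, where it was called at 500 instead of 1637 bp. At the other end stood Hoxb5os, at 36.8 and 56.8 in control and 104 and 74.0 in detrained mice, a fold of 1.92 over a called length of 1.63 kb in control and 3.84 kb in detrained mice. Tbx4 stood higher here too, at 27.002 and 26.8 tags per 10000000 in control and 44.0 and 37.3 in detrained mice. At the Hoxa6 and Hoxb5os loci the mean density lay on the other side of the control value, at 29.8 in control and 34.7 in detrained mice and at 28.7 and 23.2.

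Most members were found in both lists. By the planned one-to-one pairing, 70.3% of control members and 66.7% of detrained members had a partner, compared with 56.2% and 64.9% of all peaks. By overlap of 1 bp or more, added after seeing the data, 33 of 37 control members (89.2%) met a detrained peak. Among all control peaks 72.1% did. Likewise 32 of 39 detrained members (82.1%) met a control peak, compared with 82.0% of all detrained peaks. Members of a cluster lie close together and are not independent, so no interval is given. The 4 members of the control list alone were the Hoxb2 peak, the exonic Pitx1 peak, a Hoxc8 peak 4.79 kb downstream at 17.7 and 14.5, and a Hoxc4 peak 5.60 kb downstream at 17.6 and 10.9. All were below the median density of control peaks. The 7 of the detrained list alone were the 2 Tbx4 peaks near the gene, 2 distal Hoxb1 peaks, a Hoxb3 peak 9.88 kb downstream at 16.1 and 15.9, the Pitx1 peak 146 kb upstream and the Hoxa10 peak, of which only the last was above the median density of all detrained peaks in both libraries. Tags at these places in the other list were not analysed here.

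Noncoding RNA genes of the clusters took part in these blocks. Of 14 such genes, 9 gave their name to a peak in control and 8 in detrained mice. The most tags fell to Mir196a-2 in control mice, 2942 per 10000000 over both libraries, and the fewest of those listed to Hotair, 9.28, which had no detrained peak. Hotair is transcribed from the Hoxc cluster and is known for work on Polycomb recruitment. Hotairm1 and Halr1, which lie on the Hoxa side, had pooled tags of 174 and 181 in control and 245 and 312 in detrained mice. The Hotairm1 peak was called at 3.16 kb in the control list and 6.33 kb in the detrained list, where it reached over the place of the control Hoxa2 peak, and its density was lower, at 43.4 and 34.5 against 55.0 and 55.5. The median log2 ratio of density at the 2 shared Halr1 peaks was -0.06. Hottip, Mir10b, Mir196a-1, Mir196b and Hoxa11os gave their names to no peak. Of the 6 shared peaks of the list, 1 was above and 2 below in both detrained libraries, compared with 21.3% and 27.2% of all shared peaks.

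The partners of Hox proteins were also marked. Among the 9 TALE cofactors, homeodomain proteins that bind DNA jointly with Hox proteins, peaks bore the names of 7 in each group. Pknox2 held the most tags, 1296 per 10000000 in control and 1357 in detrained mice, and Pbx2 and Pbx4 had no peak. Of their 22 shared peaks 2 were above and 4 below, compared with 21.3% and 27.2% of all shared peaks, with a median log2 ratio of -0.06. Among 24 Polycomb and Trithorax genes, the regulators that keep Hox clusters silent or active, 22 were named in each group and Cbx2 and Cbx6 in neither. The H3K27 demethylase gene Kdm6b held the most tags, 1368 and 1387. Of 37 shared peaks in that list 3 were above and 12 below, beside 21.3% and 27.2% over all shared peaks, with a median of -0.06.

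Of 22 other factors of limb field and patterning, 17 were named in control and 16 in detrained mice. Prrx1, a marker of limb mesenchyme, held the most tags in control mice, 2399, and Tbx15, a T-box gene active in fast muscle, in detrained mice, 2013. Isl1, Hand2, Shh, Lmx1b and Irx5 had no peak, and Fgf10 had 1 control peak of 11.3 tags per 10000000. Of 48 shared peaks of this list 15 were above and 9 below, against 21.3% and 27.2% of all shared peaks, with a median log2 ratio of 0.06.

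Markers of other cells of muscle were counted beside these results. Peaks named after all 6 fibroblast and fibro-adipogenic markers summed to 3653, 3520, 4312 and 4344 tags per 10000000 in C2, C3, Ex1 and Ex2, and of their 20 shared peaks 9 were above and 3 below, where 21.3% and 27.2% of all shared peaks were. Fibroblasts are known to keep a positional Hox code, and this list stood higher in both detrained libraries while the Hoxa and Hoxc sums stood lower. Its part in the member values was not tested. The 12 muscle fibre markers summed to 9305 and 11793 in control and 10951 and 10617 in detrained mice. The 5 endothelial markers summed to 2226 and 2615 and to 2899 and 2290, and the 3 satellite cell markers to 765 and 881 and to 865 and 800. In these the groups overlapped. The 4 macrophage markers, of which Cd68 had no peak, summed to 161 and 126 in control and 258 and 213 in detrained mice, higher in both detrained libraries, and their part in the member values was not tested. Ptprc was among them with peaks in the detrained list only, holding 53.5 tags per 10000000, and the groups overlapped at the single shared peak of the list, at Csf1r. Of the adipocyte markers Fabp4 alone had peaks, at 371 and 579 in control and 598 and 444 in detrained mice. Liver markers had no control peak and 1 weak detrained peak at Apoa2, at 18.3 and 18.7, and of the brain markers Rbfox3 alone had a peak, at 64.5 and 70.0 in control and 42.7 and 51.0 in detrained mice.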

How the data were processed

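H3K27ac ChIP-seq of quadriceps had 2 libraries and 1 input per group. Reads were aligned to mm10 with Bowtie (version 1.2 in the submitters' processing notes), and HOMER called peaks in histone style on the pooled libraries of each group against its input. For each peak, the deposited pooled signal counts tags per 10000000 of the total. Regularized log2 values for single libraries are also deposited, computed with DESeq2 by the authors separately in each table and scaled to total tags. The authors' log2 fold over input and adjusted p-value of each peak served only for a stricter peak filter (at least 4-fold with p under 0.001) and are not printed.

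Tags of each library were estimated by sharing out pooled tags in proportion to library total and 2 to the power of the log2 value. Density was (tags + 0.5) per kb per 10000000 tags, with ratios taken on the log2 scale from means of log2 values. Start sites were those of curated RefSeq transcripts. Control columns C2 and C3 were assigned to the group only, because the labels number these mice differently. Members and lists were chosen with earlier results of these data known. Values were given for the densest peak of each gene, peaks over start sites, and the 3 largest shared increases and decreases. Alternatives covered peak length, overlap, normalization, centring, tags added, input, stricter peaks, left-out libraries and peak assignment, with merged loci, any overlap of members and cluster sums over listed tags added after seeing the data. Steps were tested on simulated data. Some genes are not reported here. Count models needed tag counts per library over 1 peak set and were not run. Computation used scipy 1.17.1, pandas 2.3.3 and numpy 2.4.6 in Python 3.11.15, and plots matplotlib 3.10.9.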

Additional observations from a re-analysis of the deposited data

How the results depend on the processing

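The change at shared members, the counts of members, the cluster levels, the posterior and anterior levels, the overlap and the start sites were recomputed under the alternatives that bear on each, which were 4 for the overlap of a list and 2 for its start sites. The cause of a shift was not tested unless stated. The median log2 ratio of shared members, -0.04, was 0.0068 when libraries were scaled to tags in listed peaks and ranged from -0.12 to -0.04 without 1 library. Members apart from both libraries of the other group numbered 9, 4 when 80% of each peak had to be covered, which leaves fewer pairs and not that of Tbx4, and 16 of merged loci. As tags per peak they numbered 12, with 4 above and 8 below. Without 1 library they numbered 17 without C2, 14 without C3, 20 without Ex1 and 19 without Ex2, since a single library separates more easily. Those above numbered 8 without Ex2 and 4 without each of C2, C3 and Ex1. Members beyond 2-fold numbered 0, and 1 of merged loci, and stayed at 0 under the other alternatives run. The level of cluster peaks relative to all listed peaks, in log2 and averaged over libraries, was 0.48 for Hoxa, -0.16 for Hoxb, 0.14 for Hoxc and 0.38 for Hoxd. As tags per peak these were 0.78, 0.069, 0.65 and -0.032. Restricted to peaks that exceeded input 4-fold with an adjusted p under 0.001, which kept 20 control and 25 detrained members, they were 0.70, -0.42, -0.12 and 0.047. With a peak given to every start site it covers they were 1.57, 0.061, 1.29 and 0.68. As means over peaks Hoxa was 0.67 and Hoxb -0.34. Without 1 library the ranges were 0.43 to 0.52, -0.24 to -0.08, 0.09 to 0.18 and 0.24 to 0.49. The posterior minus anterior difference, 0.84, was 1.84 as tags per peak and 0.79 to 0.91 without 1 library. One-to-one overlap of 70.3% of control and 66.7% of detrained members was 37.8% and 35.9% with 80% covered, 89.2% and 82.1% for any overlap, and 90.0% of the 20 control members that passed the fold and adjusted p limits. Cluster sums scaled to tags in listed peaks, added after seeing the data, had log2 ratios of -0.10 in Hoxc and -0.06 in Hoxa, compared with -0.15 and -0.11, with the groups still apart. Among all single shared peaks, 27.2% also stood below in both detrained libraries. Covered start sites ranged from 16 to 24 genes in control and 18 to 25 in detrained mice. No paired analysis was possible because columns C2 and C3 could not be matched to the numbered control samples, and no test was made between the tables. A replicate block, edgeR, DESeq2 size factors and low count filters were not run. Density differences under the spread of 2 libraries were not detectable here.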

Other observations

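Distances from uncovered start sites to the nearest listed peak were read at the edges of the marked stretches. They depend on gene spacing and on peak calling, and signal outside listed peaks was not analysed. On the posterior side of Hoxd, the nearest peak stood 5.94 kb from the Hoxd10 start in control and 5.36 kb in detrained mice, and in Hoxa the Hoxa11 start was 10.2 kb and 5.34 kb away. In Hoxb, Hoxb8 stood 1.78 kb and 1.22 kb from the nearest peak and Hoxb9 12.4 kb and 11.8 kb. In Hoxc the last covered gene was Hoxc11. The Hoxc12 start was 9.45 kb from the nearest control peak, that of Hotair, which lies between Hoxc11 and Hoxc12. The nearest detrained peak was 16.4 kb away.

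By paralog number, pooled tags under the gene names were highest at paralog 9 in both groups, 1910 per 10000000 in control and 1690 in detrained mice, almost all at Hoxa9. Paralog 6 followed in control mice with 1543, almost all at Hoxc6, and paralog 10 in detrained mice with 1508, which had 0 in control mice because the Hoxc10 start lay in the peak named Mir196a-2. Paralogs 12 and 13 had 0 in both groups. Paralog 2 had 53.0 in control mice, mostly under Hoxa2, and 0 in detrained mice, where the Hotairm1 peak reached over the place of the Hoxa2 peak.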
